A study of Mus musculus with 36 samples.

Results

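Cytoplasmic ribosomal protein genes were followed in mouse cells lacking the long noncoding RNA LncCPR and in their controls. The 76 genes, 45 of the large and 31 of the small ribosomal subunit, are the entries whose symbols are Rpl or Rps with a number, and an a or x where there is one, together with Rplp0, Rplp1, Rplp2 and Rpsa, out of 37561 entries in all. Each symbol had 1 entry. The knockout cells were made from AB2.2, a mouse embryonic stem cell line, with Cas9 and a pair of guide RNAs on either side of LncCPR. Cells were sorted singly, and the number of lines that the knockout libraries come from is not stated. The controls are AB2.2 cells that the labels call control. Both genotypes were sampled undifferentiated in the presence of the cytokine LIF (day 0), and at days 3, 5, 8, 10 and 12 after LIF was withdrawn and the cells were grown in hanging drops as embryoid bodies, aggregates in which many early cell types form. Each of the 12 groups has 3 libraries of total RNA from whole cultures, made with a kit that removes ribosomal RNA. The labels do not say whether the 3 are separate cultures, so p-values measure the spread between libraries, which may be technical. The study asked how LncCPR bears on heart muscle formation.

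Ribosomal proteins assemble with ribosomal RNA in the nucleolus into the small subunit, which reads the messenger RNA, and the large subunit, which joins amino acids. Nearly all are needed in about equal number per ribosome, and their messenger RNAs are among the most abundant of growing cells. Their transcripts typically start with a cytosine and a run of pyrimidines (the TOP start), through which the kinase mTOR and the RNA-binding protein Larp1 control their translation. The mouse genome also holds many processed pseudogenes of them, copies of the spliced messenger RNA without introns.

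The values are FPKM, fragments per kilobase of transcript scaled to the mapped fragments of the library. A library summed to 294740 to 403675 FPKM with 11248 to 13183 genes above 1 FPKM, and relative depth, a rough estimate, spanned a 3.25-fold range. No entry is named LncCPR, so its level was not read here. At day 0, 4 of 5 pluripotency markers (Pou5f1, Nanog, Sox2, Zfp42) were abundant in both genotypes, and the fifth, Esrrb, was listed at 0 in all 6 libraries. Control replicate 1 of day 3 stood apart with the lowest sum of all. In 6 libraries of either genotype, at days 3, 8, 10 and 12, the 10 most abundant genes took 25.2% to 30.3% of the sum, against a median of 14.3% over all libraries. Among them, control replicate 3 of day 10 had the highest such share and the lowest share of ribosomal protein genes of all libraries. The counts at day 10 are also given without this library. In whole cultures, a change in the mix of cells and a change in RNA per cell cannot be told apart.

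The 76 genes spanned a 913-fold range of mean FPKM over the 36 libraries, although FPKM is already scaled by transcript length. Among the highest were Rpl4, at 1159.8 FPKM, Rpl8, at 979 FPKM, Rpl22, at 698 FPKM, and Rplp1, a protein of the stalk that binds elongation factors, at 682 FPKM. The lowest were Rps29, at 1.27 FPKM, Rps27, at 1.77 FPKM, Rpl29, at 2.03 FPKM, Rpl17, at 2.73 FPKM, and Rpl28, at 3.83 FPKM. The median was 25.6 FPKM, 23.4 FPKM for large-subunit and 31.2 FPKM for small-subunit genes. Of the 76 genes, 20 lay above 100 FPKM and 19 below 10 FPKM, and none of the 2736 values was 0. The order was nearly fixed. Over the 66 pairs of groups, the lowest Spearman rho between the group means of the 76 genes was 0.943, the points being genes that share libraries and annotation.

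The level went with how unlike other genes a sequence is. The coding sequence of each gene (GENCODE vM21, GRCm38) was read in stretches of 50 bases, and the share of stretches found in no other annotated gene was taken. The entry named Rpl24 was left out here, because GENCODE gives its identifier (ENSMUSG00000022601.9) to Zbtb11, so which gene its level stands for is uncertain. The 10 genes with more than 50% such stretches, Rpl4, Rpl8 and Rpl22 among them, had a median level of 499 FPKM. The 39 genes with some but no more than 50% had a median of 29.0 FPKM. The 26 genes with none, which include Rps27, Rps29, Rpl17 and Rpl28, had a median of 11.6 FPKM and reached at most 53.9 FPKM. Spearman rho between the share and the level was 0.672 over 75 genes, and 0.401 once the FPKM of a gene's copies, defined below, were added to its own.

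**Figure D1:**
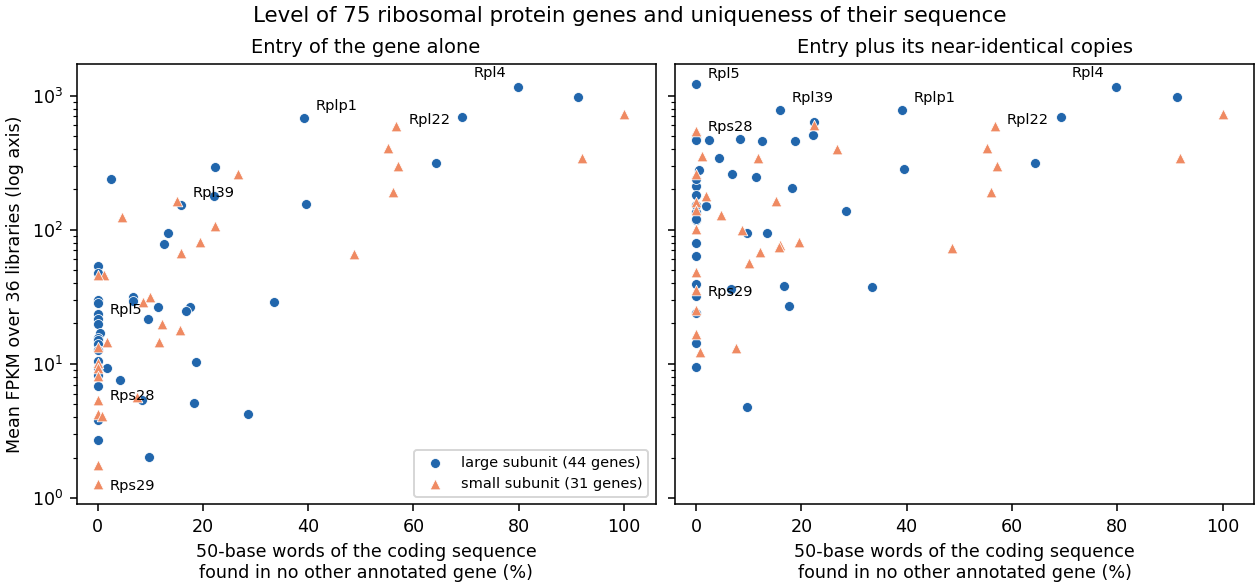
Mean FPKM over 36 libraries (log axis) of each of 75 genes against the share of its 50-base coding stretches found in no other annotated gene, for the gene alone (left) and with its copies added (right). Genes with no unique stretch reach at most 53.9 FPKM alone, and Rpl5 is the highest of the 75 once copies are added.

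Copies, taken as other entries that share at least 25% of a gene's 50-base stretches, were present for 62 of the 75 genes, 239 entries in all. For 44 genes the copies summed to more than the gene itself, and for 20 to more than 10 times as much. Of the 62 most abundant copies, 1 per gene, 55 are annotated as pseudogenes and 7 as protein-coding. Aligned without gaps, their median identity to the gene's coding sequence was 99.5% and the lowest 71.3%, and 55 pairs reached 95%. How the authors' tools shared out fragments that match both is not given in the sources used here, and fragments of a gene and of an identical copy cannot be told apart. The level of such a gene is therefore uncertain. The copies held 49.9% to 58.7% of the FPKM of genes and copies together in the 36 libraries. With copies added, the median of the 76 genes, Rpl24 counted alone, was 162 FPKM, and 2 genes stayed below 10 FPKM.

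The sequences below show what the values of these genes stand on: stretches of 60 coding bases from a ribosomal protein gene and from its most abundant copy, 5′ to 3′ (GENCODE vM21 transcripts, GRCm38), in lower case, with capitals for the base at which the pair differs. Rpl5, a protein that carries 5S ribosomal RNA into the large subunit and with Rpl11 binds the p53 regulator Mdm2, averaged 21.4 FPKM at chr5:107900502-107909005 (plus strand). Gm15500, a processed pseudogene at chr7:114705217-114706235 (minus strand), averaged 1192 FPKM. The pair had 0 mismatches over 894 coding bases, and bases 1 to 60 are shown.
Rpl5: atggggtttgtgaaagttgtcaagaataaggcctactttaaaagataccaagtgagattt
Gm15500: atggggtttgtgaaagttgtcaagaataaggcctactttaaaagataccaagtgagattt

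Rps28, a small-subunit protein near the messenger RNA exit, averaged 5.42 FPKM at chr17:33819027-33824562 (minus strand). Its copy Gm10443, at chr6:86334031-86334240 (plus strand), averaged 541 FPKM with 0 mismatches over 210 bases, the whole coding sequence. Bases 1 to 60 are shown.
Rps28: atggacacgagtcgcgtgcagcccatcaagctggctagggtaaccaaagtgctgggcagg
Gm10443: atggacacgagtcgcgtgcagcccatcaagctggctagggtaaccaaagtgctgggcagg

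Rpl3, a large-subunit protein close to the peptidyl transferase centre, averaged 7.63 FPKM at chr15:80077791-80091868 (minus strand). Rpl3-ps1, at chrX:13202571-13203780 (plus strand), averaged 333 FPKM and differed at 2 of 1209 bases, 1 of which lies in bases 1 to 60.
Rpl3: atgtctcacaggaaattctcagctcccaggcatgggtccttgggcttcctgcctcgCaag
Rpl3-ps1: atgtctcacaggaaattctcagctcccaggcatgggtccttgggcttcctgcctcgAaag

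Rpl39, the small protein that lines the exit tunnel for the new chain, averaged 154 FPKM at chrX:37082520-37085402 (minus strand), and is shown as 1 of the genes that differed most between the genotypes. Rpl39-ps, at chr15:102635038-102635188 (plus strand), averaged 575 FPKM and differed at 1 of 150 bases. Coding bases 37 to 96 are shown.
Rpl39: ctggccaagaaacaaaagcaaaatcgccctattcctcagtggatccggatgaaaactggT
Rpl39-ps: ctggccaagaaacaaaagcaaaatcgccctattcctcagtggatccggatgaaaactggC

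**Figure D2:**
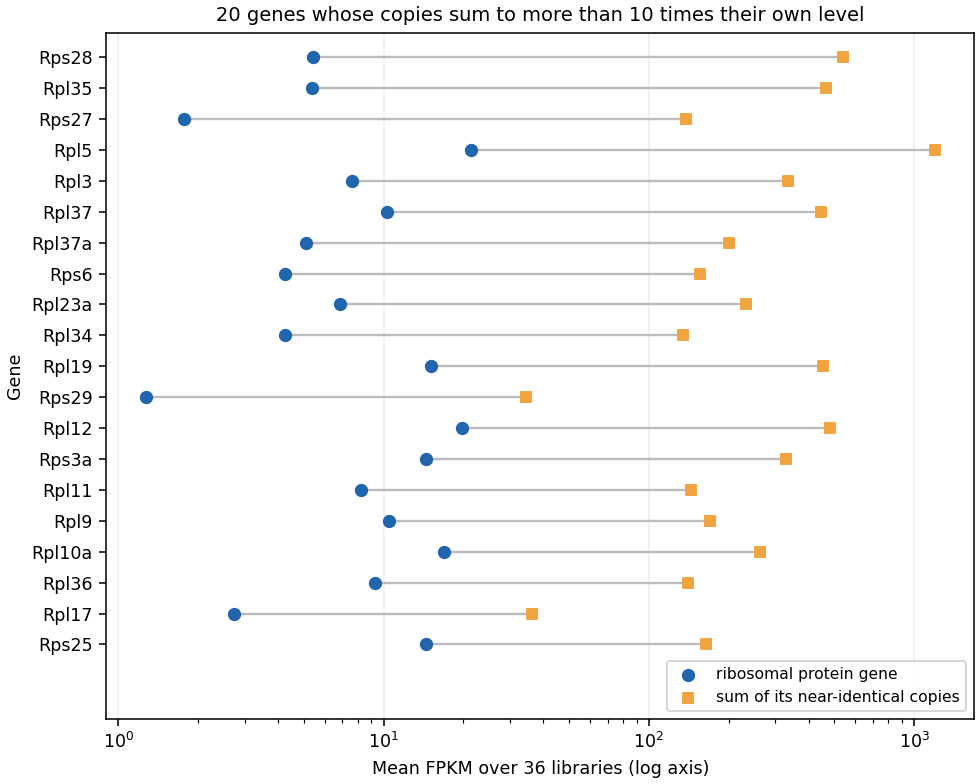
Mean FPKM over 36 libraries (log axis) of the 20 genes whose copies sum to more than 10 times their own level (circles: the gene; squares: the sum of its copies). Rps28, Rpl35 and Rps27 are farthest from their copies, and Rpl5 has the most abundant ones.

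Summed over the 76 genes, the ribosomal protein genes took 1.59% to 3.44% of a library's FPKM, with a median of 2.71%. In the order of days 0, 3, 5, 8, 10 and 12, the mean share was 2.75% ± 0.108, 3.26% ± 0.166, 3.32% ± 0.0823, 2.30% ± 0.476, 2.55% ± 0.119 and 2.61% ± 0.245 in knockout libraries (SD, n = 3 each). In control libraries it was 2.90% ± 0.0949, 2.72% ± 0.469, 3.02% ± 0.265, 2.22% ± 0.338, 1.92% ± 0.290 and 2.21% ± 0.0778. Without control replicate 1 the control mean of day 3 was 2.98%, and without control replicate 3 that of day 10 was 2.08%. The 6 tables may have been normalized separately, so levels across days are a description with no test. Both genotypes held less at days 8 to 12 than at day 5, and the genotypes lay farthest apart at day 10.

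At day 10 the sum was 8476 ± 388 FPKM in knockout and 5924 ± 837 FPKM in control libraries (SD, n = 3 each). It was also taken after rescaling, each library divided by its typical ratio to the day's geometric mean. The rescaled sum was 7932 ± 400 in knockout and 6208 ± 274 in control libraries. The share lay between 2.46% and 2.68% in knockout and between 1.59% and 2.15% in control libraries, with no overlap. Without control replicate 3 the control sum as deposited averaged 6407 FPKM and the lowest control share was 2.01%. At day 12 the sum as deposited was 9420.0 ± 499 FPKM in knockout and 7269 ± 219 FPKM in control libraries. At day 0 it was 10622 ± 282 FPKM in knockout and 10752 ± 296 FPKM in control libraries. The shares did not overlap at days 5 and 12 either. They were 3.23% to 3.38% in knockout and 2.72% to 3.21% in control libraries of day 5, a narrow gap. The sums of day 5 did overlap, at 11163 to 12605 FPKM in knockout and 9028 to 11456 FPKM in control libraries as deposited. After rescaling they also overlapped, at 10913 to 11961 in knockout and 10134 to 11203 in control libraries. At day 12 they were 2.34% to 2.80% in knockout and 2.12% to 2.26% in control libraries.

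**Figure D3:**
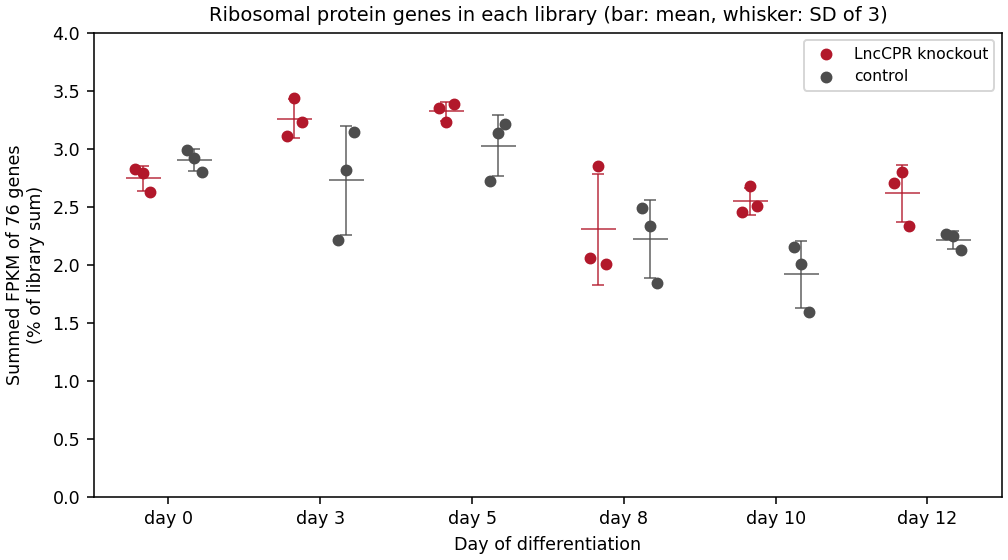
Summed FPKM of the 76 genes as a percentage of the library sum, by day, in knockout (left of each pair) and control libraries. Points are libraries, bars are means and whiskers the SD of 3. The groups do not overlap at days 5, 10 and 12, at day 5 by a narrow gap (lowest knockout library 3.23%, highest control library 3.21%). At day 10 knockout libraries hold 2.46% to 2.68% and control libraries 1.59% to 2.15%.

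The balance between subunits moved with the days. The summed FPKM of large-subunit genes over that of small-subunit genes was, from day 0 to day 12 in the same order, 1.83, 1.66, 1.54, 1.48, 1.45 and 1.32 in knockout libraries. It was 1.70, 1.56, 1.45, 1.32, 1.33 and 1.304 in control libraries. The SD over 3 libraries was 0.0143 to 0.0866 in knockout and 0.0361 to 0.127 in control groups. The ratio was lower at day 12 than at day 0 in both genotypes. Relative to the median ribosomal protein gene of the same library, the genes that varied most over the 12 group means were Rpl9, with a range of 2.10 on the log2 scale, Rpl27, with 1.95, Rps3a, with 1.94, Rpl35a, with 1.87, and Rpl29, with 1.86. Rpl9 lay highest relative to that median in control libraries of day 0 and lowest in control libraries of day 12. Rps3a ran the other way in the knockout, lowest at day 0 and highest at day 12.

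At day 10, when heart muscle markers were abundant in control embryoid bodies, 32 of 75 ribosomal protein genes tested were higher in knockout libraries and 0 were lower (limma, adjusted p under 0.05). Over all genes tested at that day, 15.0% were higher and 5.12% lower. The median log2 fold change, on the scale of log2(FPKM + 1), was 0.50 for the ribosomal protein genes and 0.17 for all genes tested, and 75 of 75 lay above 0. Large-subunit genes contributed 19 of 45 and small-subunit genes 13 of 30. Rps29, whose libraries held 1.68, 1.90 and 0.450 FPKM in knockouts and 0.587, 0.810 and 0.219 FPKM in controls, fell below the filter of 1 FPKM and was not tested.

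Part of this distance is shared by all genes and depends on scaling. Median-ratio rescaling, which divides each library by its typical ratio to the day's geometric mean, moved the median log2 fold change of all genes to 0.02 at day 10, against 0.17 as deposited. It was 0.00 against 0.15 at day 3, 0.03 against 0.13 at day 5, and moved by less than 0.1 at the other days. Relative to the rescaled background of 10.5% of genes higher and 10.8% lower, 19 of 75 ribosomal protein genes were higher at day 10 and 0 were lower, with a median of 0.34. At days 0, 3, 5, 8 and 12, rescaled counts were 1 higher and 1 lower of 76 (8.79% and 7.12% of all genes), 0 higher and 1 lower (1.64% and 2.81%), 1 higher and 2 lower (5.90% and 6.26%), 2 higher and 0 lower (2.16% and 3.52%), and 10 higher and 0 lower of 74 (3.53% and 4.55%). Of all calls at day 10, 74.6% were higher as deposited and 49.2% after rescaling. The same split was 44.7% and 55.3% at day 0, 61.9% and 36.9% at day 3, and 68.1% and 48.5% at day 5.

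The count at day 10 leaned on single libraries. Without control replicate 3 it was 12 of 76, with a median log2 fold change of 0.39 and 9.17% of all genes higher. Without knockout replicate 1 it was 17 of 75 (8.68% of all genes), and without knockout replicate 2 it was 20 of 75 (8.01%). Without knockout replicate 3 it was 23 of 75 (10.2%), without control replicate 1 it was 25 of 76 (11.6%), and without control replicate 2 it was 35 of 75 (16.3%). In each of these 6 omissions the share of ribosomal protein genes called higher was above that of all genes. Division by the library sum left 10 genes, where 6.77% of all genes were higher, and leaving out the filter on low values, which adds genes to the adjustment, left 1, where 1.78% were.

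Rpl22 (ENSMUSG00000028936.9, chromosome 4), an RNA-binding protein of the large subunit, was among the clearest. At day 10 it held 597, 696 and 589 FPKM in knockout libraries, against 335, 365 and 254 FPKM in control libraries. All 3 knockout libraries lay above all 3 controls, and the means were 627 ± 59.7 FPKM in knockout and 318 ± 57.5 FPKM in control libraries. The log2 fold change was 0.99 (SE 0.17, limma adjusted p = 0.00225), and the call held in each of the 6 single-library omissions and after rescaling. It was lost with no filter on low values (adjusted p = 0.0677, the highest of its alternatives, which start at 0.000596). Rpl22 has no copy in the tables, and 69.2% of its 50-base stretches are its own.

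Rpl39 (ENSMUSG00000079641.3), whose sequence is shown above, held 119, 171 and 196 FPKM in knockout libraries of day 10 and 89.8, 87.4 and 77.0 FPKM in controls (log2 fold change 0.90, SE 0.18, limma adjusted p = 0.00411). The groups did not overlap. Rps2 (ENSMUSG00000044533.9), a small-subunit protein at the messenger RNA entry, held 49.3, 65.3 and 52.9 FPKM in knockout libraries and 35.9, 32.3 and 22.2 FPKM in controls (log2 fold change 0.89, SE 0.18, limma adjusted p = 0.00468). Rpl12, at the base of the stalk, held 20.01, 22.4 and 25.3 FPKM in knockout libraries and 9.72, 15.4 and 11.6 FPKM in controls, without overlap (log2 fold change 0.85, adjusted p = 0.00432). Rpl38, known in mouse embryos for its part in translating Hox messenger RNAs, held 29.7, 26.9 and 24.9 FPKM in knockout libraries and 9.41, 18.5 and 16.2 FPKM in controls (log2 fold change 0.89, adjusted p = 0.00849). Like Rpl22, the genes Rpl39, Rps2, Rpl12, Rpl38 and Rps12 stayed past the threshold in each of the 6 single-library omissions. Of these 6, Rpl38 alone did not pass after rescaling (adjusted p = 0.0533, with a range of 0.00219 to 0.124 over its alternatives).

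The largest fold change rested on uneven libraries. Rpl35a, a large-subunit protein mutated in the human disease Diamond-Blackfan anaemia, held 12.4, 56.0 and 26.8 FPKM in knockout libraries of day 10 and 10.3, 9.68 and 8.30 FPKM in controls (log2 fold change 1.41, SE 0.35, limma adjusted p = 0.01496). The controls were tight, and the knockout libraries spread over a wide range. The call was lost without control replicate 3 (adjusted p = 0.113) and after rescaling (adjusted p = 0.0730), and its adjusted p over all alternatives ran from 1.83e-05 to 0.205.

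**Figure D4:**
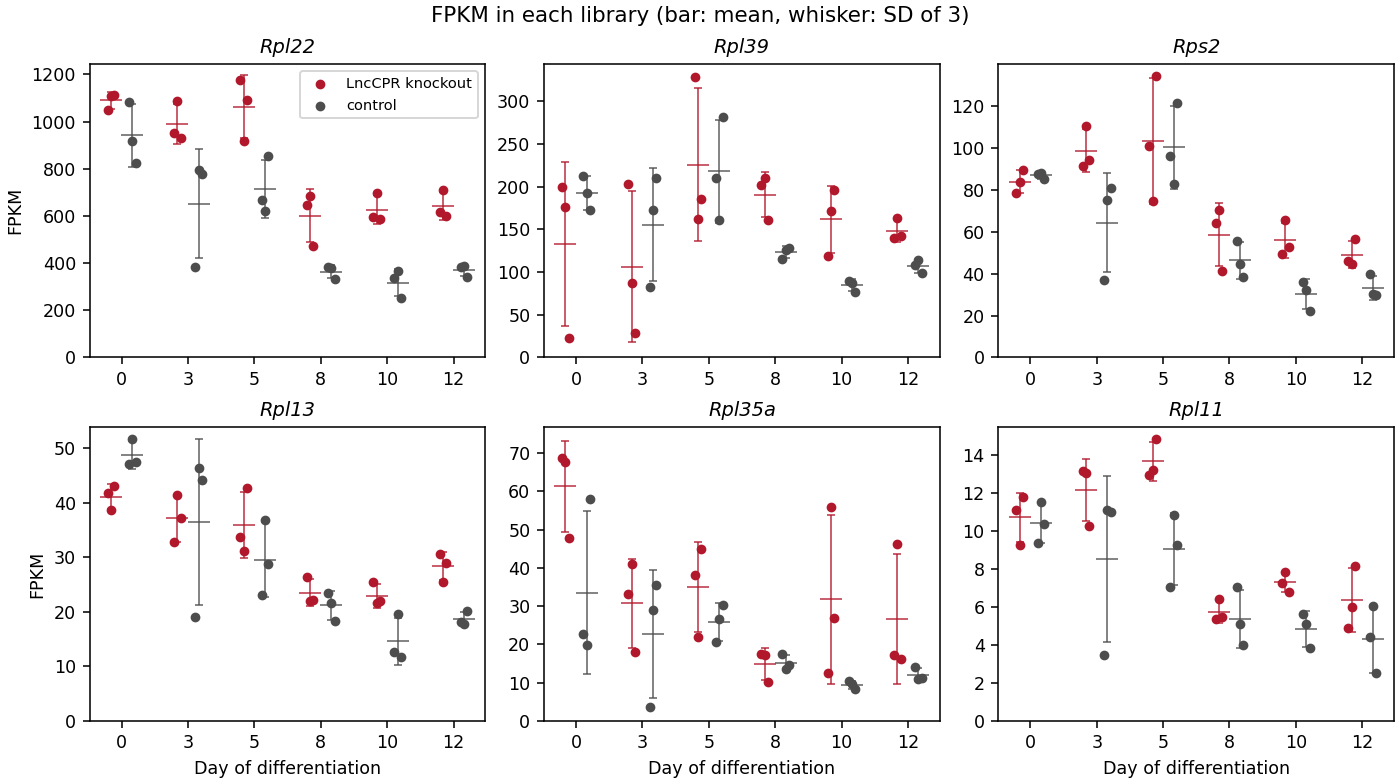
FPKM in each library by day for Rpl22, Rpl39, Rps2, Rpl13, Rpl35a and Rpl11, knockout left and control right at each day (bar: mean; whisker: SD of 3). At days 10 and 12 the knockout libraries of Rpl22 lie between 589 and 711 FPKM and the controls between 254 and 386 FPKM, while at day 10 the knockout libraries of Rpl35a run from 12.4 to 56.0 FPKM.

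Apart from Rpl22, the most abundant genes named above moved by less. Rpl4, a core large-subunit protein, held 1099, 1005 and 989.6 FPKM in knockout libraries of day 10, against 734, 775 and 601 FPKM in controls (log2 fold change 0.56, adjusted p = 0.0371). Rpl8 held 801, 988 and 794 FPKM in knockout libraries and 675, 636 and 467 FPKM in controls, without overlap, and missed the threshold (log2 fold change 0.55, adjusted p = 0.0534). The stalk proteins Rplp0 and Rplp1 were higher by 0.58 (adjusted p = 0.0219) and 0.51 (adjusted p = 0.0357) on the log2 scale.

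Genes of the panel known for roles beyond the ribosome did not all pass. Rpl11 and Rpl3 were higher at day 10, by 0.52 and 0.61 on the log2 scale (adjusted p = 0.0374 and 0.0223). Rpsa, also known as a laminin receptor, differed by 0.53 (adjusted p = 0.0501), Rps4x, the X-linked small-subunit gene, by 0.45 (adjusted p = 0.0507), Rps27a, which is made as a fusion with ubiquitin, by 0.41 (adjusted p = 0.161), and Rpl10, needed for the last step of large-subunit maturation, by 0.45 (adjusted p = 0.175). The panel gene Rpl41 was not analysed here. Over the 6 single-library omissions the calls of Rpl4 and Rpl11 held in 1, those of Rplp1 and Rpl3 in 2 and that of Rplp0 in 4, all but those of knockout replicates 1 and 2.

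For genes with abundant copies, the value of the gene and that of its copy were set side by side. At day 10, Rpl3 held 6.54, 6.52 and 5.93 FPKM in knockout libraries and 4.95, 3.39 and 3.23 FPKM in controls. Rpl3-ps1 held 373, 351 and 308 FPKM in knockout libraries and 236, 257 and 179 FPKM in controls, with a log2 fold change of 0.63 (adjusted p = 0.0195). Gene and copy were higher by about the same factor. Rpl5 held 18.2, 18.1 and 15.8 FPKM in knockout libraries and 26.3, 13.6 and 11.4 FPKM in controls (log2 fold change 0.11, adjusted p = 0.768). Its copy Gm15500 held 1163, 1189 and 1124 FPKM in knockout libraries and 823, 930.1 and 689 FPKM in controls, without overlap (log2 fold change 0.52, adjusted p = 0.0533). The difference between Rpl5 and Gm15500 was not tested.

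With each gene summed with its copies, 46 of 76 were higher at day 10 and 0 lower, where 15.3% of all genes were higher. Without control replicate 3 the count with copies was 22 of 76, where 9.41% of all genes were higher. At days 0 and 5 the counts with copies were 5 higher and 2 lower (6.53% and 8.04% of all genes) and 1 higher and 0 lower (7.09% and 3.30%). Of the 32 genes called alone at day 10, 31 were also called with copies, and Rpl13a was not (log2 fold change 0.42, adjusted p = 0.0657). By uniqueness, 7 of the 10 genes with more than 50% unique stretches were higher at day 10, with a median log2 fold change of 0.56, and so were 15 of the 39 between and 10 of the 25 tested genes with no unique stretch, with medians of 0.46 and 0.47. Without control replicate 3 these counts were 3 of 10, 6 of 39 and 3 of 26. The calls were thus spread over genes with and without unique stretches, with the largest share among those with more than 50%. At day 12 the counts in the same order were 3 of 10, 5 of 38 and 1 of 25. Their median log2 fold changes were 0.38, 0.26 and 0.15. The difference between these classes was not tested.

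Markers of cell types moved at the same day. The summed FPKM of 5 pluripotency markers was 119 to 140.3 in knockout and 40.4 to 66.3 in control libraries of day 10, and 5 of 5 were higher. That of 6 heart muscle markers (such as Myh6 and Tnnt2) was 168 to 299 in knockout and 885 to 909 in control libraries, with 6 of 6 lower. That of 5 visceral endoderm markers was 193 to 245 in knockout and 457 to 806 in control libraries, with 5 of 5 lower. That of 5 matrix genes of fibroblasts was 119 to 185 in knockout and 312 to 457 in control libraries, with 5 of 5 lower. That of 4 red blood cell markers was 13.002 to 49.4 in knockout and 34.6 to 87.4 in control libraries, with 2 of 3 tested lower. That of 5 primitive streak markers was 27.4 to 35.2 in knockout and 24.2 to 29.0 in control libraries. Of the 4 tested, 2 were higher and 1 lower, with and without control replicate 3. No marker of these 6 lists was at 0 in all 6 libraries. Without control replicate 3, 3 of 5 pluripotency markers were higher, and 6 of 6 heart muscle, 4 of 5 visceral endoderm, 4 of 5 matrix and 2 of 3 red blood cell markers lower. The part of these differences in the level of ribosomal protein genes was not tested.

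At day 12, 9 of 74 ribosomal protein genes were higher in the knockout and 0 lower, where 3.22% of all genes tested were higher and 3.48% lower. The median log2 fold change was 0.28 for the ribosomal protein genes and 0.05 for all genes. The 9 were Rpl22, Rpl13, Rps2, Rpl32, Rps19, Rpl39, Rps15, Rpl7 and Rpl13a, of which all but Rpl7 were also higher at day 10. Rpl29 and Rps29 fell below the filter. After rescaling 10 of 74 were higher, 8 of them among these 9, where 3.53% of all genes were higher. With copies, 12 of 76 were higher, where 3.28% of all genes were, and with copies and rescaling 18 of 76, where 3.61% were.

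Rpl22 held 616, 711 and 602 FPKM in knockout libraries of day 12 and 385, 386 and 342 FPKM in controls (643 ± 59.5 FPKM in knockout and 371 ± 25.4 FPKM in control libraries). The groups lay far apart, with a log2 fold change of 0.79 (SE 0.12, limma adjusted p = 0.00660). Rpl13 held 30.5, 25.5 and 28.9 FPKM in knockout libraries and 18.2, 17.8 and 20.1 FPKM in controls (log2 fold change 0.57, adjusted p = 0.0184). Rps15, a small-subunit protein, held 323, 326 and 320.2 FPKM in knockout libraries and 235, 257 and 223 FPKM in controls (log2 fold change 0.44, adjusted p = 0.0366), and its 3 knockout libraries hardly differed. Rpl7 held 321, 323 and 309 FPKM in knockout libraries and 244, 242 and 229 FPKM in controls (log2 fold change 0.41, adjusted p = 0.0377). Rps3a had the largest fold change at this day and missed the threshold, with 34.6, 14.1 and 38.4 FPKM in knockout libraries and 11.7, 10.3 and 12.2 FPKM in controls (log2 fold change 1.16, adjusted p = 0.0534).

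The calls at day 12 were near the threshold. Leaving out a single library left 1 gene without knockout replicate 1, where 0.708% of all genes were higher, 3 without knockout replicate 2 (0.648%) and 2 without knockout replicate 3 (1.03%). It left 4 without control replicate 1 (1.51%), 3 without control replicate 2 (1.71%) and 2 without control replicate 3 (1.44%). Rpl22 alone held in each of the 6 omissions, where its adjusted p ran from 0.0181 to 0.0374, and it was lost with no filter on low values (adjusted p = 0.0767, the highest of its alternatives, which start at 0.00363). The median log2 fold change of the ribosomal protein genes stayed between 0.23 and 0.33. Heart muscle markers summed to 237 to 283 FPKM in knockout and 652 to 738 FPKM in control libraries of day 12 (6 of 6 lower) and matrix genes to 271 to 337 FPKM in knockout and 569 to 658 FPKM in control libraries (4 of 5 lower), while pluripotency markers summed to 59.7 to 80.0 FPKM in knockout and 54.7 to 116 FPKM in control libraries (0 of 5 called). Red blood cell markers summed to 14.8 to 17.5 FPKM in knockout and 34.4 to 59.7 FPKM in control libraries (2 of 3 tested lower), and visceral endoderm markers to 301 to 545 FPKM in knockout and 562 to 892 FPKM in control libraries (1 of 5 lower). Primitive streak markers summed to 14.2 to 19.4 FPKM in knockout and 20.7 to 24.2 FPKM in control libraries (1 of 3 tested lower). The part of all these markers in the result was not tested.

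**Figure D5:**
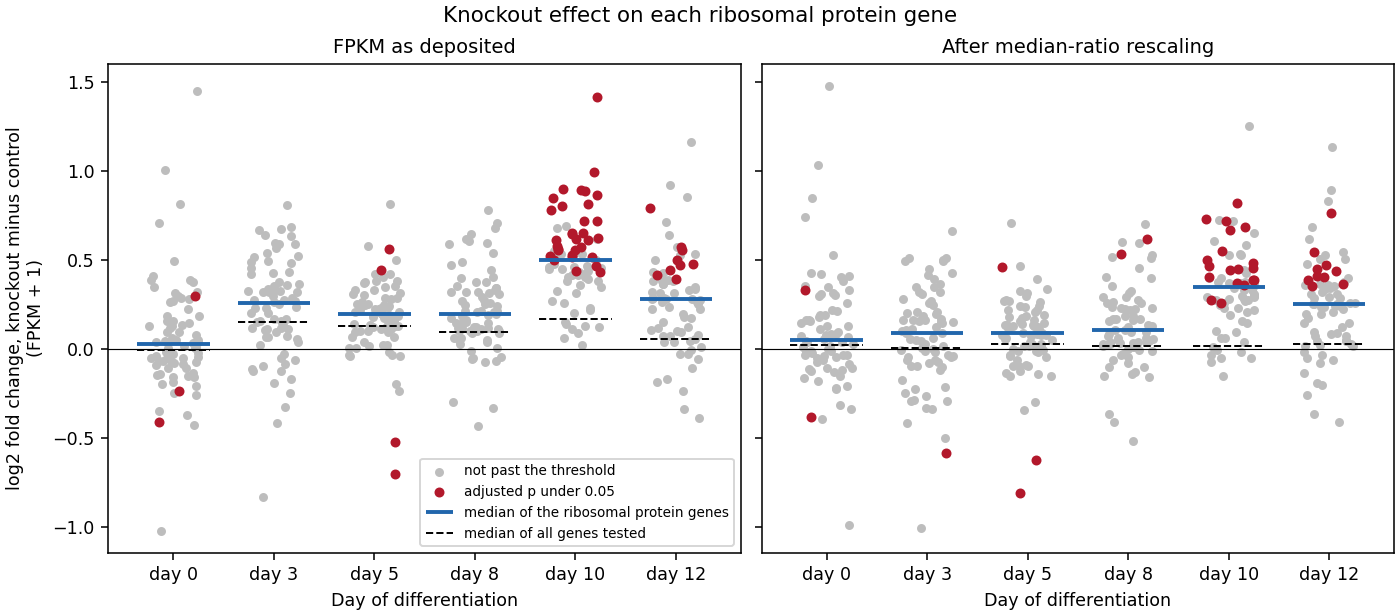
Log2 fold change, knockout minus control, of each ribosomal protein gene tested at each day, for FPKM as deposited (left) and after median-ratio rescaling (right). Red points passed adjusted p under 0.05, solid lines are medians of the ribosomal protein genes and dashed lines medians of all genes; at day 10 these medians are 0.50 and 0.17 as deposited, and 0.34 and 0.02 after rescaling.

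In undifferentiated cells, day 0, few ribosomal protein genes differed. Of 76, 1 was higher and 2 were lower in the knockout, where 6.49% of all genes tested were higher and 8.03% lower. The median log2 fold change was 0.02, against -0.01 for all genes, and -0.03 when values were divided by the library sum. Rps4x held 35.5, 33.1 and 34.8 FPKM in knockout libraries and 28.4, 28.9 and 26.3 FPKM in controls (log2 fold change 0.30, adjusted p = 0.0212). Rpl7a held 32.7, 25.5 and 25.5 FPKM in knockout libraries and 37.4, 38.9 and 35.5 FPKM in controls (log2 fold change -0.41, adjusted p = 0.0318). Rpl13 held 41.7, 38.7 and 43.0 FPKM in knockout libraries and 47.0, 51.6 and 47.5 FPKM in controls (log2 fold change -0.24, adjusted p = 0.0461). None of the 3 groups of values overlapped, but Rpl13 was lost in every single-library omission (adjusted p up to 0.139), Rpl7a in 5 of 6, all but that of knockout replicate 1 (up to 0.0989), and Rps4x without knockout replicate 1, knockout replicate 3 or control replicate 3 (up to 0.0654). Rpl13 lies on chromosome 8, whose genes had a median log2 fold change of -0.25 at day 0, against 0.00 for those of other chromosomes. Genes of chromosome 6 also had a median of -0.25 at day 0. At day 10 the median was 0.18 on chromosome 8 and 0.16 on the others. Chromosome 1 then had a median of -0.12, against 0.18 on the others. It was also lower at days 5, 8 and 12, at -0.14, -0.19 and -0.21, against 0.14, 0.10 and 0.07 on the others. Chromosomes 6 and 8 had medians of -0.10 and -0.07 at day 3, each against 0.16 on the others. At day 5 these were 0.14 and 0.12, each against 0.13. What these medians mean for single genes or for comparisons between days was not tested. Both Rpl13 and Rpl7a, lower at day 0, were higher at day 10.

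At day 3, 0 of 76 ribosomal protein genes passed, with 5 at an unadjusted p under 0.05, and 1.75% of all genes tested passed (1.09% higher and 0.668% lower). The median log2 fold change was 0.26, against 0.15 for all genes, and 0.00 without control replicate 1, the library with the lowest sum. Rpl22 held 951, 1086 and 929 FPKM in knockout libraries and 385, 794 and 779 FPKM in controls, without overlap (log2 fold change 0.67, SE 0.36, adjusted p = 0.524). The low control was replicate 1. After rescaling 1 of 76 was lower, where 2.81% of all genes were lower.

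At day 5, when the summed primitive streak markers were highest, 2 of 76 were higher and 2 lower, where 7.07% of all genes were higher and 3.32% lower. The median was 0.20, against 0.13 for all genes. Rpl11 held 12.9, 13.2 and 14.8 FPKM in knockout libraries and 7.06, 10.8 and 9.23 FPKM in controls (log2 fold change 0.56, adjusted p = 0.0324). Rpl27 held 23.7, 21.6 and 19.97 FPKM in knockout libraries and 14.3, 17.9 and 15.2 FPKM in controls (log2 fold change 0.44, adjusted p = 0.0406). Both were also higher at day 10. Rps10 held 7.75, 6.65 and 6.06 FPKM in knockout libraries and 8.53, 10.7 and 11.7 FPKM in controls (log2 fold change -0.53, adjusted p = 0.0347). Rps10 was higher at day 10, with 3.78, 6.38 and 6.28 FPKM in knockout libraries and 4.51, 2.51 and 2.00 FPKM in controls, which overlapped (log2 fold change 0.72, adjusted p = 0.0446). The calls of Rpl11 and Rps10 at day 5 each held in 2 of 6 single-library omissions, with adjusted p up to 0.0940 for Rpl11 and 0.109 for Rps10, and that of Rpl27 held in 1, with adjusted p up to 0.141. Rpl11 held without knockout replicate 1 or control replicate 2, Rps10 without replicate 1 of either genotype, and Rpl27 without control replicate 2.

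At day 8, 0 of 76 passed, with 10 at an unadjusted p under 0.05, and 3.28% of all genes tested passed (1.28% higher and 2.00% lower). The median was 0.19, against 0.09 for all genes. Rpl22 held 646, 685 and 472 FPKM in knockout libraries and 383, 378 and 332 FPKM in controls (log2 fold change 0.70, SE 0.19, adjusted p = 0.0832). Rpl39 held 202, 209.9 and 161 FPKM in knockout libraries and 115, 126 and 129 FPKM in controls (log2 fold change 0.62, SE 0.15, adjusted p = 0.0571). Neither gene's groups overlapped, and after rescaling these 2 of 76 were higher, where 2.16% of all genes were. Without knockout replicate 3, 4 of 76 were higher, where 3.20% of all genes were. At day 8 heart muscle markers summed to 145 to 184 FPKM in knockout and 838 to 1035 FPKM in control libraries (5 of 6 lower), and red blood cell markers to 1.16 to 1.67 FPKM in knockout and 27.6 to 32.9 FPKM in control libraries (2 of 2 tested lower). Matrix genes summed to 40.7 to 47.4 FPKM in knockout and 54.5 to 68.8 FPKM in control libraries (1 of 4 tested lower), and pluripotency markers to 120.03 to 184 FPKM in knockout and 71.1 to 76.4 FPKM in control libraries (2 of 5 higher). Primitive streak markers summed to 43.1 to 51.1 FPKM in knockout and 41.9 to 46.9 FPKM in control libraries (2 higher and 1 lower of 4 tested). Visceral endoderm markers summed to 134 to 156 FPKM in knockout and 113 to 260 FPKM in control libraries (0 of 5 called). The part of these markers in the result was not tested.

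Rpl22 was thus higher on average in the knockout at each of the 6 days. Its log2 fold changes at days 0, 3, 5, 8, 10 and 12 were 0.22, 0.67, 0.58, 0.70, 0.99 and 0.79, and it passed at days 10 and 12. Rpl39 went the other way on average at days 0 and 3, by -1.02 and -0.84, where replicate 3 of the knockout lay at 23.0 FPKM (day 0) and 29.0 FPKM (day 3), far below its other libraries; neither difference passed (adjusted p = 0.367 and 0.469).

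A call at 1 day and none at another does not show that days differ. The F test of whether the knockout effect differed between days called 0 of 74 ribosomal protein genes, 4 of them at an unadjusted p under 0.05, where 11.7% of all 10739 genes passed. The lowest adjusted p were those of Rpl12, at 0.106, Rpl9, at 0.115, Rps10, at 0.119, Rps2, at 0.189, and Rps12, at 0.197. After rescaling 7 of 74 passed, where 28.5% of all genes did: Rpl32, Rpl12, Rpl13, Rps10, Rps9, Rps2 and Rpl9. The share of ribosomal protein genes was below that of all genes in both cases. Without replicate 1 of each group, 2 of 74 passed, where 6.91% of all genes did.

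Other genes of ribosome production were described by counts from lists. Of 36 genes of ribosome biogenesis, which make and process ribosomal RNA, 27 were higher at day 10 and 0 lower, with a median log2 fold change of 0.59, against the 15.0% higher among all genes. They include Rrp9, a protein of the box C/D particle that processes ribosomal RNA, with 20.2, 19.4 and 21.8 FPKM in knockout libraries and 7.94, 10.9 and 8.63 FPKM in controls (log2 fold change 1.09, adjusted p = 0.000322). Polr1b, a subunit of RNA polymerase I, held 15.97, 23.3 and 23.9 FPKM in knockout libraries and 11.5, 9.54 and 8.57 FPKM in controls (log2 fold change 1.01, adjusted p = 0.00183). Dkc1 and Nhp2, of the particle that makes pseudouridine, had log2 fold changes of 0.97 and 0.94. At days 0, 3, 5, 8 and 12 the list had 8, 0, 2, 1 and 1 genes higher, and 3 lower at day 0. At day 10 it had 21 higher after rescaling and 22 without control replicate 3, where 10.5% and 9.17% of all genes were higher, and 0 lower in both.

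The same shares of all genes apply to the lists that follow. Of 17 translation factors, 6 were higher at day 10, led by Eef1d (0.65), a subunit of the elongation factor exchange complex, and Naca (0.62), which binds new chains at the ribosome. At day 12, 4 were higher, led by Tpt1 (0.64), where 3.22% of all genes were higher. Of 7 host genes of small nucleolar RNAs, which guide the modification of ribosomal RNA, 6 were higher at day 10, among them Snhg4 (1.08) and Snhg3 (0.93). Of 72 mitochondrial ribosomal protein genes, 26 were higher at day 10 and 0 lower, with a median of 0.40, and 15 were higher and 1 lower after rescaling. Of 8 growth regulators, 2 were higher, Mtor (0.52) and Larp1 (0.56), both named above. Without control replicate 3 the translation factors had 3 higher, the small nucleolar RNA hosts 4, the mitochondrial list 16, with 1 lower, and the growth regulators 1.

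Close relatives of ribosomal protein genes, outside the 76, were tested as well. Rpl10l, a retrogene that replaces Rpl10 in mouse spermatogenesis, held 72.8, 63.8 and 69.0 FPKM in knockout libraries of day 0 and 25.9, 22.3 and 24.99 FPKM in controls (log2 fold change 1.45, SE 0.08, adjusted p = 0.000106). Rpl39l, a testis-expressed relative of Rpl39, held 40.7, 38.8 and 35.5 FPKM in knockout libraries of day 0 and 14.8, 18.1 and 16.5 FPKM in controls (log2 fold change 1.17, adjusted p = 0.000396). In both, each knockout library lay above each control. They were also higher at day 3, by 1.303 and 1.14 on the log2 scale, and Rpl39l at day 5 by 0.71. The parent genes did not pass at days 0 and 3: Rpl10 held 11.1, 13.1 and 11.6 FPKM in knockout libraries of day 0 and 13.7, 10.3 and 14.2 FPKM in controls (log2 fold change -0.07, adjusted p = 0.735).

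Rps27l, a relative of Rps27 known as a target of p53, held 71.1, 97.7 and 69.9 FPKM in knockout libraries of day 8 and 45.8, 43.3 and 32.8 FPKM in controls (log2 fold change 0.95, adjusted p = 0.0188). It was higher at day 10 as well, by 0.90 (adjusted p = 0.00306). Rpl7l1 was higher at days 0 and 10, by 0.26 and 0.55, and Rpl36al at day 0, by 0.26, while Rps4y2 was lower at day 0, by -0.25 on the log2 scale. Rpl22l1, the paralog of Rpl22, passed at none of the 6 days, at 3.55, 2.56 and 2.85 FPKM in knockout libraries of day 10 and 3.00, 3.54 and 2.14 FPKM in controls. Rpl3l was below the filter at every day. Fau, a ribosomal protein made as a fusion with a ubiquitin-like part and not among the 76, was higher at day 5 (0.65, adjusted p = 0.0388).

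The promoters of the 76 genes were read for letters known from such genes, in windows of RefSeq (GRCm38.p6) from 250 bases before to 50 bases after the annotated start, which matched 55 of the 76 symbols. A gene with several windows counted once, as a match if any of them matched. The letters CCGGAAG, the core of ETS family sites, were found on either strand in 22 of 55 genes, against 9.93% of all 27025 genes with a window. AAGATGG, the core of YY1 sites, was found in 9 of 55 (16.4%), against 7.28% of all these genes, GGGCGG, the GC box, in 33 of 55, against 38.2%, and TATAAA in 6 of 55 (10.9%), against 15.7%. A start with C and 4 pyrimidines was annotated in 13 of 55, 23.6%, against 3.01%. A match is a description of letters and says nothing of binding. The following stretches are those of Rps2 and Rpl38, both higher at day 10, with only the match to CCGGAAG in capitals. Matches to the other letters stay in lower case, GGGCGG in Rpl38 and TATAAA on the other strand in Rps2. Rps2 is shown at chr17:24719910-24719969 (plus strand, 153 to 94 bases before the start), where the match reads on the other strand, and Rpl38 at chr11:114668520-114668579 (plus strand, 60 to 1 bases before the start).
Rps2: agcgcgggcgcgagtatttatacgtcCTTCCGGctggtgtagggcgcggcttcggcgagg
Rpl38: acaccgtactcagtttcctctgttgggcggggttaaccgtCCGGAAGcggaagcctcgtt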

How the data were processed

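RNA was measured in 36 libraries, 3 for each of 12 groups. The deposited values are FPKM, fragments per kilobase of transcript scaled to mapped fragments, in 6 tables of 37561 gene entries, 1 table per day, made by the authors with TopHat, Cufflinks and the mouse build mm9, per the submitters' processing notes. Versions, settings, annotation, strand of counting, and the handling of fragments that match several places are not given in the sources used here. FPKM are relative to the library total, so a few abundant transcripts lower all other values of a library. Absolute depth is unknown, and no counting interval is given. Relative depth, the inverse of the usual step between the values of genes seen in few libraries, spanned a 3.25-fold range. It is a rough estimate. In the library at the low end, knockout replicate 1 of day 8, 11 of the 61 genes compared lay at that step.

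The 76 genes and all gene lists were chosen with earlier results of these data known. Each day was fitted within its own table with limma 3.58.1 in R 4.3.3 on log2(FPKM + 1), letting the variance follow abundance. A gene entered a day's fit where its 6 libraries averaged at least 1 FPKM, and two-sided p-values were adjusted over all of them (Benjamini-Hochberg, threshold 0.05). Whether the effect of the knockout depended on the day was tested by a limma F test on 36 libraries. An exact test of 3 against 3 libraries cannot go below 0.1. Alternatives were median-ratio rescaling (each library divided by its median ratio, over genes, to the day's geometric mean), division by the library sum, pseudocounts of 0.1 and 5, no filter or 5 FPKM, no variance trend, the replicate number as a block, summed rows of a symbol, and each library left out. Summing a gene with its copies, at day 10 also without control replicate 3, and leaving out libraries after rescaling, were added after the data were seen.

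Copies are other table entries, matched by Ensembl identifier to GENCODE vM21 (GRCm38), that share 25% or more of the 50-base words of a gene's coding sequence. Named genes are the 5 highest and 5 lowest by level, the 3 highest and 3 lowest changes past the threshold per day, those past it in 1 direction at 3 or more days, the 5 lowest p-values of the F test, the 5 most variable relative to the median ribosomal protein gene, and a panel (Rplp0, Rpsa, Rpl3, Rpl5, Rpl10, Rpl11, Rpl22, Rpl38, Rpl39, Rpl41, Rps4x, Rps27a). Outside the 76, paralogs and fusion genes in the tables and up to 4 called genes per day of other lists, by size of change, are named. Some genes that these rules pick are not reported here. Others named were chosen after their values were seen. The limma step was tested on simulated data. Python 3.11.15, pandas 2.3.3, numpy 2.4.6 and matplotlib 3.10.9 handled tables and plots.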

Additional observations from a re-analysis of the deposited data

How the results depend on the processing

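Each count of ribosomal protein genes called is followed by the percentage of all genes called. At day 10 the count, 32 (20.2%), was 10 (12.7%) after division by the library sum, 19 (21.3%) after rescaling and 1 (3.08%) with no filter on low values. At day 12, 9 (6.71%), it was 1 (5.52%), with a median log2 fold change of 0.15, after division by the library sum, 0 (0.842%) with no filter, 3 (5.29%) without the variance trend, and 18 (8.18%) with copies and rescaling. At day 0, 3 (14.5%), it was 5 (13.7%) after division by the library sum, 7 with copies, without (14.6%) or with (15.99%) rescaling, and 1 with no filter (3.01%) or no trend (11.2%). At day 3, 0 (1.75%), it was 1 (4.45%) after rescaling. At day 5, 4 (10.4%), it was 1 with copies, without (10.4%) or with (12.2%) rescaling, and 0 (1.53%) with no filter. At day 8, 0 (3.28%), it was 2 after rescaling, without (5.68%) or with (5.69%) copies, and 1 (3.46%) without the trend. The F test between days, 0 (11.7%), called 7 (28.5%) after rescaling and 11 (28.5%) with copies and rescaling. The cause of these shifts was not tested.

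Leaving out each library gave 1 to 3 genes and medians of 0.01 to 0.07 at day 0 (after rescaling 1 to 3 and 0.05 to 0.11), 0 to 2 and 0.00 to 0.41 at day 3 (0 to 1 and 0.02 to 0.13), 1 to 3 and 0.12 to 0.28 at day 5 (1 to 3 and 0.06 to 0.15), 0 to 4 and 0.07 to 0.34 at day 8 (0 to 4 and 0.04 to 0.20), 12 to 35 and 0.39 to 0.56 at day 10 (17, 9 and 11 without knockout replicates 1, 2 and 3, 13, 9 and 8 without control replicates 1, 2 and 3, and 0.31 to 0.36), and 1 to 4 and 0.23 to 0.33 at day 12 (1 to 7 and 0.22 to 0.30). For the F test it gave 0 to 2 genes. All genes called in these omissions were 6.55% to 8.56%, 1.55% to 2.79%, 6.70% to 8.01%, 1.497% to 5.23%, 11.9% to 19.9% and 2.42% to 4.46% at the 6 days in order. After rescaling they were 7.08% to 9.79%, 1.08% to 2.70%, 6.03% to 8.37%, 1.69% to 5.65%, 13.5% to 16.6% and 2.46% to 5.66%, and for the F test 1.51% to 6.91%.

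Replicate numbers did not pair the libraries. Each gene's deviations from its group mean were correlated between a knockout and a control library of the same day. The correlation was -0.12 to 0.27 over 18 same-numbered pairs, 5 of them over 0.1. Differently numbered pairs ran from -0.33 to 0.27. With the replicate block the count was 1 (6.76%) at day 0, 3 (4.65%) at day 8, 3 (3.54%) at day 12 and 1 (9.82%) for the F test. Over 33 called combinations of a named gene and a day and 778 alternatives, 425 kept direction and call, 353 kept the direction only and 0 reversed. FPKM without counts limit what can be said of the genes near 1 FPKM, such as Rps29 and Rps27.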
